A study of Mus musculus with 24 samples.

Results

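A set of 7 genes that respond to, or belong to, the YAP and TGF-beta pathways was followed in mouse liver: Tgfb1, Thbs1, Smad7, Amotl2, Ctgf, Cyr61 and Ankrd1. They were found as the rows of the deposited count table with these symbols, and 7 of 7 were present among 24015 gene symbols. Ctgf and Cyr61 are older symbols of Ccn2 and Ccn1. Total RNA freed of ribosomal RNA was sequenced from livers of B6C3F1 females, hybrid mice of a strain common in toxicology, which were 5 to 6 weeks old when bought. Daily gavage for 21 days gave the furan group 8 mg of furan per kg in corn oil and the control group the oil alone, and livers were collected 4 hours after dosing ended. Furan, a small ring compound that forms in heated food, damages the rodent liver. Furan animals were numbered 41 to 44 and control animals 2, 3, 4 and 6, and the liver of each was cut into 3 pieces. The first was snap frozen (fresh frozen), the second lay in formalin for 18 hours and the third for 3 weeks, and the last 2 were then embedded in paraffin (FFPE 18 h and FFPE 3 weeks). This gave 6 groups of 4 libraries, each library from a separate animal within its group. Fixed and frozen tissue also differed in extraction kit, and 2 sections in place of 1 were extracted after 3 weeks, so fixation time, kit, input and piece of liver cannot be told apart.

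YAP and its relative TAZ are transcriptional co-activators that bind the TEAD factors on DNA and are held out of the nucleus by the Hippo kinases. TGF-beta is a secreted cytokine kept in a latent form in the matrix; once released it signals through receptor kinases to SMAD proteins, which enter the nucleus and induce, among others, their own inhibitors. In injured liver TGF-beta drives stellate cells toward matrix production, and YAP activity accompanies regeneration and bile duct-like changes of hepatocytes.

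The members called YAP targets are known for TEAD-bound sites near their genes. The 250 bases before the transcription start are therefore shown for 4 members from the RefSeq promoter table (build GRCm38.p6), Cyr61, Ankrd1, Amotl2 and Tgfb1. Those of Ctgf, Thbs1 and Smad7 are not shown. Capitals mark the core letters of the TEAD motif, GGAATG, or its reverse complement CATTCC; each sequence reads in the direction of its gene.
Cyr61 (chr3:145649986-145650235, minus strand): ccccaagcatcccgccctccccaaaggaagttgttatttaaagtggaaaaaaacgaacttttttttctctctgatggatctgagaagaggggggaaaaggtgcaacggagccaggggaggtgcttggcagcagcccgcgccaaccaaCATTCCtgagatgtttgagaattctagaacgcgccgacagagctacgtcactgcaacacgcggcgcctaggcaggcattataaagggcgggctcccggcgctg
Ankrd1 (chr19:36119845-36120094, minus strand): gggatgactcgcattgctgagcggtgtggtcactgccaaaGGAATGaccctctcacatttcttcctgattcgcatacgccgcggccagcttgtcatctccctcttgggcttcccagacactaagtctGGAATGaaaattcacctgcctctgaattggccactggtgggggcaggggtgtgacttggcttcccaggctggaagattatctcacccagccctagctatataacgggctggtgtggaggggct
Amotl2 (chr9:102717554-102717803, plus strand): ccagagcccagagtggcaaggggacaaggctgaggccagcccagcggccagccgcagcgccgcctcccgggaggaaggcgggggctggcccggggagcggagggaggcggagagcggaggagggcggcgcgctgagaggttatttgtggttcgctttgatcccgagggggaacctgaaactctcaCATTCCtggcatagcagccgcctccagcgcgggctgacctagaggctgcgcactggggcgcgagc
Tgfb1 (chr7:25686752-25687001, plus strand): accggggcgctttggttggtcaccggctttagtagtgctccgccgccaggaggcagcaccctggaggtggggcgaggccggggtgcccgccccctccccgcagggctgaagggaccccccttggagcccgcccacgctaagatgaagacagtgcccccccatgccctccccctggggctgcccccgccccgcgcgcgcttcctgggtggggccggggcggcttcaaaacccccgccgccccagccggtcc
Ankrd1 held the TEAD core in 2 places, beginning at bases -210 and -123 from the start, Cyr61 held it once at -103 and Amotl2 once at -65, and Tgfb1 held none. The letters occurred on either strand in 12.6% of 32851 promoters of this length. The SMAD element CAGACA was found in Ankrd1 at -137, ahead of the second TEAD core, and occurs in 17.1% of the promoters. The AP-1 motif TGANTCA, which 6.75% of promoters hold, was in none of the 4 sequences. These matches describe letters in a window, not bound sites.

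Depth differed by preservation: a fresh frozen library held 37.98 to 49.3 megacounts (M), an FFPE 18 h library 22.9 to 28.1 M and an FFPE 3 weeks library 5.56 to 11.02 M. Levels are given as CPM (counts per megacount) scaled over all 24 libraries by the trimmed mean of M values (TMM), and p-values come from edgeR's quasi-likelihood test with Benjamini-Hochberg adjustment over all genes tested, with a call at adjusted p below 0.05. Among the frozen libraries, that of control animal 3 stood apart: its mean correlation with the other control libraries was 0.957, against 0.977 to 0.980 for those, and the frozen fold changes of the members are therefore also given without it. The hepatocyte markers Alb, Apoa1, Ttr, Cps1 and Serpina1a summed to 159227 to 180376 CPM in furan frozen libraries and 149602 to 169490 CPM in control frozen libraries. Alb made up most of these sums, at means of 144800 and 132500 CPM. Taken gene by gene, 2 of 5 had a log2 fold change above 0 with furan in frozen tissue. Their median there was -0.02, and 0 of 5 were called. In bulk tissue, fewer cells of a type and less RNA per cell cannot be told apart.

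The first comparison asked whether furan changed the 7 genes. In fresh frozen liver 0 of 7 tested members were called, where 2.78% of 14122 tested genes were (1.57% higher and 1.2% lower with furan). In FFPE 18 h liver 0 of 6 tested members were called, against 15.5% of 14204 genes (7.82% higher and 7.72% lower), and in FFPE 3 weeks liver 0 of 6, against 2.58% of 12983 genes (1.07% higher and 1.51% lower). The furan and control libraries of a tested member did not overlap in 0 of 7 cases in fresh frozen (13.5% of genes), 1 of 6 in FFPE 18 h (20% of genes) and 0 of 6 in FFPE 3 weeks tissue (8.68% of genes). Ankrd1 was not tested in fixed tissue because its counts were too low. DESeq2 also called 0 members in each preservation. Unadjusted p below 0.05 was reached by 18.4% of genes in fresh frozen, 28.9% in FFPE 18 h and 12.4% in FFPE 3 weeks tissue, and by 1 member in 1 preservation, Thbs1 in FFPE 18 h tissue. The median log2 fold change of the tested members was -0.01 in fresh frozen, 0.01 in FFPE 18 h and 0.34 in FFPE 3 weeks liver, beside medians of -0.01, 0.00 and 0.01 over all genes tested there.

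**Figure D1:**
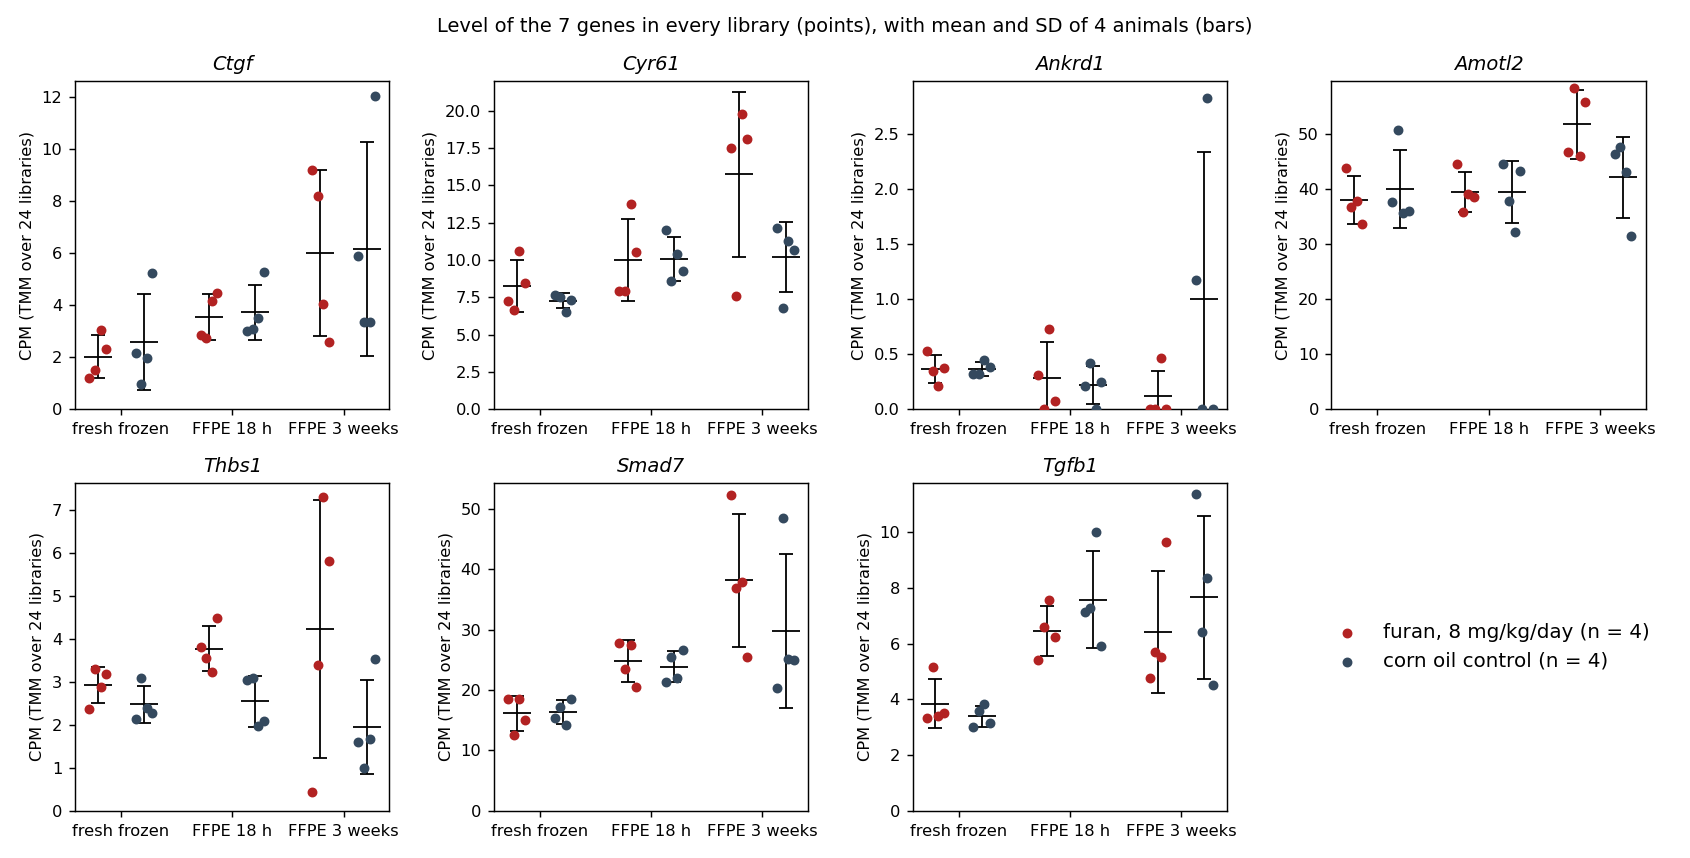
CPM of each of the 7 genes (vertical axes, TMM over 24 libraries) in every library, for furan (red, left of each pair) and corn oil control (blue, right), with bars for the mean and SD of 4 animals. Thbs1 in FFPE 18 h tissue has its 4 furan points, 3.24 to 4.48 CPM, above its 4 control points; the points overlap for the other tested members and for Thbs1 in the other preservations.

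Tgfb1 encodes the ligand TGF-beta 1, which in liver is made mainly outside the hepatocyte. In fresh frozen liver it had 3.34, 5.17, 3.39 and 3.52 CPM in furan animals 41, 42, 43 and 44, against 3.02, 3.58, 3.84 and 3.15 CPM in control animals 2, 3, 4 and 6, the order kept below. Furan animal 42 was above the other 7, which lay together. Furan's log2 fold change was 0.18 ± 0.21 (SE; adjusted p = 0.682), 0.00 without that animal and 0.21 without control animal 3. Fixed for 18 h, the pieces gave 5.40, 6.59, 7.55 and 6.25 CPM with furan, against 7.13, 7.28, 10.01 and 5.91 CPM in control. After 3 weeks of formalin the furan values were 4.77, 5.71, 5.52 and 9.66 CPM and the control values 11.4, 6.42, 8.34 and 4.51 CPM. The treatments overlapped in both fixed preservations, with log2 fold changes of -0.22 ± 0.18 (adjusted p = 0.444) and -0.23 ± 0.49 (adjusted p = 0.938).

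Thbs1 encodes thrombospondin-1, a matrix protein carried by platelets and made by many cells, known to release TGF-beta from its latent complex. Frozen livers had 2.37, 3.31, 2.89 and 3.19 CPM with furan, against 2.15, 3.10, 2.41 and 2.27 CPM in control. Pieces fixed for 18 h had 3.81, 3.57, 3.24 and 4.48 CPM with furan, against 3.05, 3.09, 1.98 and 2.10 CPM in control. Here the 4 furan livers lay above the 4 control livers; this was the case for 9.59% of the genes tested in this preservation. This gave a log2 fold change of 0.57 ± 0.23, or 1.49-fold (95% interval 1.06 to 2.08), with an unadjusted p of 0.0232 in edgeR's test that did not pass the adjustment (adjusted p = 0.105). The estimate was 0.25 ± 0.21 in fresh frozen liver (adjusted p = 0.575; 0.37 without control animal 3). After 3 weeks the values spread from 0.441 CPM in furan animal 41 through 3.397, 7.30 and 5.81 CPM in furan animals 42, 43 and 44, against 1.60, 1.00, 1.67 and 3.54 CPM in control. Both the lowest and the highest library were furan libraries, and the log2 fold change of 1.14 ± 0.96 had an adjusted p of 0.749. In frozen tissue the 4 platelet markers (Pf4, Ppbp, Itga2b, Gp9) summed to 4.04 to 4.67 CPM with furan, against 4.38 to 6.37 in control. They summed to 4.24 to 5.40 CPM with furan, against 3.38 to 5.05 CPM in control in FFPE 18 h tissue. After 3 weeks they summed to 3.09 to 8.15 CPM with furan, against 0.215 to 5.52 CPM in control, with Pf4 and Gp9 at 0 in every library. Itga2b made up most of the frozen sums, at means of 3.61 CPM with furan and 4.36 CPM in control. The part of the platelet markers in the Thbs1 values was not tested.

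Smad7, the inhibitory SMAD that blocks the TGF-beta receptor and is itself induced by the pathway, was among the more abundant members. Frozen furan livers had 18.5, 12.6, 18.5 and 15.1 CPM, against 15.5, 17.2, 14.2 and 18.6 CPM in control livers. The FFPE 18 h values were 27.8, 23.4, 27.4 and 20.5 CPM with furan, against 21.3, 25.5, 22.03 and 26.6 CPM in control. The groups overlapped in both preservations. The frozen log2 fold change of -0.02 was 0.0065 without control animal 3. The fold was 0.988 (95% interval 0.778 to 1.25) in fresh frozen and 1.05 (0.890 to 1.23) in FFPE 18 h liver, with adjusted p of 0.964 and 0.758 in edgeR's test. After 3 weeks furan animals 41 to 44 had 52.3, 36.9, 37.9 and 25.4 CPM, against 20.4, 48.6, 25.2 and 24.9 CPM in control. Control animal 3 lay apart from the other controls and within the furan range. The log2 fold change was 0.37 ± 0.26 (adjusted p = 0.658), and 0.72 without that animal, which was not called either.

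Amotl2, of the angiomotin family, binds YAP and keeps it in the cytoplasm, and is itself a YAP target; it was the most abundant member in CPM in every group. Its values were 43.97, 36.7, 37.9 and 33.6 CPM in frozen furan livers and 37.7, 50.7, 35.7 and 36.1 CPM in frozen control livers. Control animal 3, the library that stood apart, had the highest value. The fold was 0.952 (95% interval 0.767 to 1.18; adjusted p = 0.827), and the log2 fold change of -0.07 turned to 0.06 without that library. Fixation for 18 h gave 44.6, 35.9, 39.1 and 38.6 CPM with furan, against 44.6, 37.8, 32.2 and 43.3 CPM in control, a fold of 1.01 with the narrowest interval of the members in that preservation (0.871 to 1.17; adjusted p = 0.956). After 3 weeks the furan libraries had 46.9, 58.4, 46.1 and 56.0 CPM and the control libraries 46.5, 47.6, 43.1 and 31.6 CPM. The log2 fold change there was 0.31 ± 0.19 (adjusted p = 0.559), with 2 furan libraries above the highest control library.

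Ctgf encodes a secreted matrix-associated growth factor that both YAP and TGF-beta induce, and its spread was wide, with a coefficient of variation of 41.2% in furan and 71.7% in control frozen livers. Frozen furan livers had 1.20, 1.51, 3.05 and 2.31 CPM, against 2.15, 0.950, 1.96 and 5.22 CPM in frozen control livers. Control animals 3 and 6 held the lowest and the highest value. The log2 fold change was -0.34 ± 0.46 (adjusted p = 0.734), -0.61 without control animal 3 and 0.25 without control animal 6, none of them called. The FFPE 18 h values were 2.84, 2.74, 4.16 and 4.45 CPM with furan, against 3.00, 3.09, 3.50 and 5.29 CPM in control. After 3 weeks they were 9.18, 8.18, 4.02 and 2.57 CPM with furan, against 5.89, 3.34, 3.34 and 12.03 CPM in control. The groups overlapped in both, with log2 fold changes of -0.06 ± 0.24 (adjusted p = 0.914) and -0.03 ± 0.58 (adjusted p = 0.995).

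Cyr61, the close relative of Ctgf in the same family of secreted matrix proteins and an immediate-early YAP target, had 7.26, 6.66, 10.6 and 8.49 CPM in frozen furan livers, against 7.65, 7.54, 6.52 and 7.34 CPM in frozen control livers. Furan animals 43 and 44 were above the controls and the other 2 furan animals were within their range. The estimate was a log2 fold change of 0.19 ± 0.18 (adjusted p = 0.607), and 0.21 without control animal 3. Fixation for 18 h gave 7.89, 7.94, 13.7 and 10.5 CPM with furan, against 11.97, 8.57, 10.4 and 9.27 CPM in control, and a fold of 1.00 (95% interval 0.775 to 1.30; adjusted p = 0.993). After 3 weeks furan animals had 17.5, 7.57, 19.7 and 18.1 CPM, against 12.1, 6.76, 11.3 and 10.6 CPM in control. The libraries of furan animals 41, 43 and 44 were above the highest control library and furan animal 42 was not. The log2 fold change of 0.65 ± 0.36 had an unadjusted p of 0.0801 in edgeR's test and an adjusted p of 0.493.

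Ankrd1, a cardiac and stress-induced ankyrin repeat protein used as a reporter of YAP activity, was close to the limit of detection. Frozen livers held 19, 15, 8 and 15 counts with furan, against 11, 10, 18 and 13 counts in control, which is 0.366 ± 0.131 CPM and 0.366 ± 0.062 CPM (SD, n = 4 each). Its log2 fold change was -0.01 ± 0.44 (adjusted p = 0.995; -0.073 without control animal 3), with a 95% interval of the fold from 0.512 to 1.93. The FFPE 18 h libraries held 9, 0, 19 and 2 counts with furan, against 5, 11, 0 and 6 in control. After 3 weeks the counts were 0, 0, 5 and 0 with furan, against 14, 0, 22 and 0 in control. Of the fixed libraries, 2 of 8 held none of its reads after 18 h and 5 of 8 after 3 weeks. Furan was not tested against control there.

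**Figure D2:**
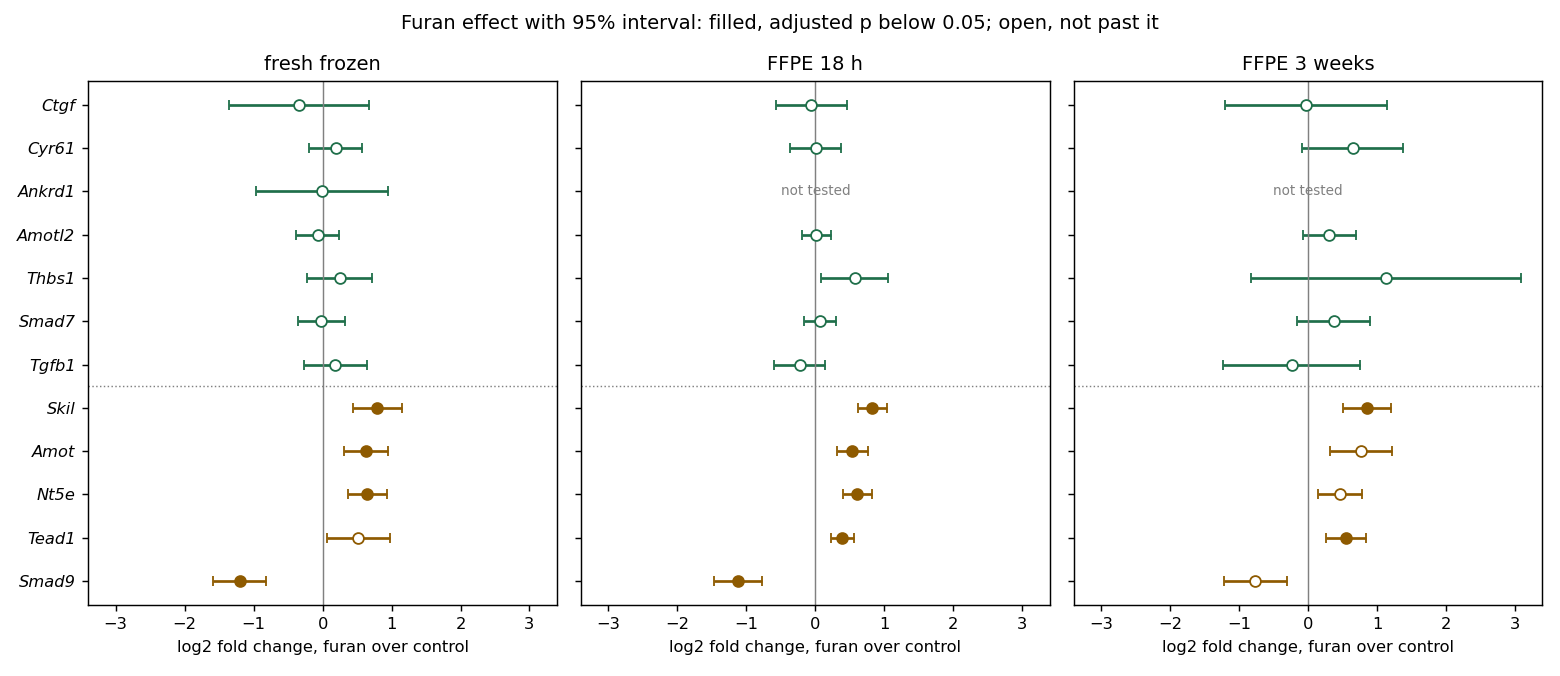
Log2 fold change of furan over control with its 95% interval (horizontal axes) for the 7 members (green, above the dotted line) and 5 pathway genes (brown) in the 3 preservations; filled points have an adjusted p below 0.05. No member is filled; Skil is filled in each preservation, at 0.79, 0.83 and 0.85.

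The furan effect was then compared between preservations. For FFPE 18 h minus fresh frozen, 0 of 7 members were called, as was 0% of 14901 genes. In edgeR's test 20 genes (0.134%) had an unadjusted p below 0.05, and DESeq2 called 1 gene. That share is far below the 0.05 due when no gene differs, so the test was too strict here. The fit took its spread over all preservations and did not pair pieces of a liver. Its 0 calls therefore do not show that the furan effects were equal. For FFPE 3 weeks minus fresh frozen, 0 of 7 members were called, against 0.0268% of genes (4 genes), with 1261 genes (8.46%) at an unadjusted p below 0.05 and 155 called by DESeq2, of which 0 were members. The difference of log2 fold changes between FFPE 3 weeks and fresh frozen was largest in size for Ankrd1, at -2.98 ± 1.92 on few counts. For Thbs1 it was 0.88 ± 0.72, for Cyr61 0.45 ± 0.37 and for Amotl2 0.37 ± 0.21, with adjusted p from 0.686 to 0.854 for these 3 genes in edgeR's test.

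Genes of the same pathways gave the setting for these results. The counts of calls in every list below stand beside 2.78%, 15.5% and 2.58% of all tested genes called in fresh frozen, FFPE 18 h and FFPE 3 weeks tissue. No list was tested as a set. Of the other members of a published YAP and TAZ target signature of human tumours (22 genes, 4 of them described above), 16 were tested in mouse liver, and 1 rose with furan in fresh frozen, 1 in FFPE 18 h and 0 in FFPE 3 weeks tissue. Both calls were Nt5e, which encodes the surface nucleotidase CD73. It averaged 210 ± 19.9 CPM in furan and 134 ± 21.8 CPM in control frozen livers (SD, n = 4 each; log2 fold change 0.65 ± 0.13, adjusted p = 0.0266), and 142 ± 16.6 and 93.7 ± 11.1 CPM in the FFPE 18 h pieces (0.61 ± 0.10, adjusted p = 0.000703). Gadd45a, a stress gene that p53 also induces, had 6.54 ± 1.35 CPM in furan and 3.52 ± 0.887 CPM in control frozen livers (0.89 ± 0.23, adjusted p = 0.0695). Igfbp3 and Ptpn14 had log2 fold changes of -0.41 and -0.30 there, and neither passed. The list's median log2 fold change was -0.10 in fresh frozen, 0.07 in FFPE 18 h and 0.25 in FFPE 3 weeks liver. Among 9 tested genes reported to rise with active YAP in mouse liver, Afp, the fetal plasma protein, rose in fresh frozen tissue (11.2 ± 3.72 CPM in furan and 5.67 ± 0.507 CPM in control, adjusted p = 0.0482). No gene of this list was called in fixed tissue, where Afp had log2 fold changes of -0.02 and 0.18. Myc, the growth-promoting transcription factor, had log2 fold changes of 1.31 ± 0.33 in fresh frozen (adjusted p = 0.063) and 1.56 ± 0.55 in FFPE 18 h tissue (adjusted p = 0.118). The Notch ligand Jag1 and the bile duct factor Sox9 had 0.38 and -0.58 in fresh frozen tissue and were not called.

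Of the YAP pathway's own components and Hippo kinases, 20 were tested in fresh frozen and FFPE 18 h tissue and 19 in FFPE 3 weeks tissue. Amot, the founding angiomotin and a partner of YAP as Amotl2 is, had 23.6, 26.3, 33.9 and 27.9 CPM in frozen furan livers, against 20.1, 15.2, 18.4 and 18.6 CPM in frozen control livers. The groups did not overlap, and Amot rose there (0.63 ± 0.14, adjusted p = 0.0436) and in FFPE 18 h tissue (0.53 ± 0.11, adjusted p = 0.00232). Tead1, the DNA-binding partner of YAP, rose in FFPE 18 h (0.39 ± 0.08, adjusted p = 0.00283) and FFPE 3 weeks tissue (0.55 ± 0.14, adjusted p = 0.0275), and had 0.52 ± 0.21 in fresh frozen tissue (adjusted p = 0.218). In frozen tissue Tead1 ran from 18.7 to 37.2 CPM with furan and from 13.8 to 21.3 CPM in control, which overlap. Lats1, a kinase that phosphorylates YAP, rose in FFPE 18 h tissue by 0.19 ± 0.06 (adjusted p = 0.0387), a call lost without control animal 3, and Vgll4, which competes with YAP for TEAD, fell by 0.64 there (adjusted p = 0.00409). In the fit over all 24 libraries the FFPE 18 h calls of Amot and Tead1 were lost (adjusted p = 0.123 and 0.318). After 3 weeks Amot had 0.76 ± 0.22 (adjusted p = 0.0579), and 4 of 5 alternative settings and 2 of 8 fits without 1 library called it. Yap1 itself averaged 111 ± 6.09 CPM in furan and 93.1 ± 6.84 CPM in control frozen livers (0.25 ± 0.10, adjusted p = 0.219). Among the Hippo genes 1 rose and 0 fell in fresh frozen, 3 rose and 1 fell in FFPE 18 h and 1 rose and 0 fell in FFPE 3 weeks tissue. Of all genes 2.78%, 15.5% and 2.58% were called there.

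TGF-beta receptors, SMADs and their regulators gave 1 rise and 0 falls among 26 tested genes in fresh frozen tissue. They gave 4 rises and 2 falls among 26 in FFPE 18 h, and 1 rise and 0 falls among 25 in FFPE 3 weeks tissue. The shares of all genes called were 2.78%, 15.5% and 2.58% in the same order. Skil, which encodes the SMAD co-repressor SnoN and is itself induced by TGF-beta, was the rise found in each. It had 46.3, 46.4, 43.3 and 44.4 CPM in frozen furan livers, against 29.5, 19.1, 32.4 and 22.8 CPM in frozen control livers. The FFPE 18 h values were 51.0, 51.5, 43.2 and 44.5 CPM with furan, against 28.0, 24.5, 32.2 and 23.4 CPM in control. After 3 weeks they were 80.0, 68.2, 73.8 and 57.1 CPM with furan, against 36.5, 41.4, 42.6 and 35.9 CPM in control. The 4 furan livers were above the 4 control livers in each preservation, with log2 fold changes of 0.79 ± 0.16, 0.83 ± 0.10 and 0.85 ± 0.17 (edgeR adjusted p = 0.0266, 3.06e-05 and 0.00393). Without control animal 3 the frozen value was 0.67.

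Tgif1, another SMAD co-repressor, rose in FFPE 18 h tissue (0.71 ± 0.17, adjusted p = 0.0111) and had 0.60 ± 0.19 in fresh frozen tissue (adjusted p = 0.129). The receptor Tgfbr1 and the ubiquitin ligase Smurf2, which with Smad7 degrades that receptor, rose in FFPE 18 h tissue by 0.23 ± 0.07 and 0.26 ± 0.07 (adjusted p = 0.0305 and 0.0213), and both calls were lost without control animal 3. Eng, a TGF-beta co-receptor best known from endothelial cells, fell there to 69.1 ± 1.54 CPM in furan livers, against 85.1 ± 3.96 CPM in control livers (adjusted p = 0.00353), and Ltbp4, which binds latent TGF-beta in the matrix, fell to 27.0 ± 1.55 CPM, against 40.7 ± 4.63 CPM (adjusted p = 0.000279). Tgfbr3, a further co-receptor, had a log2 fold change of -0.40 ± 0.10 in fresh frozen tissue (adjusted p = 0.0627). The 8 sinusoidal endothelial markers were read beside these falls. They summed to 559 to 585 CPM in furan and 689 to 728 CPM in control FFPE 18 h libraries, where 6 of 8 fell, and to 585 to 623 CPM in furan and 748 to 802 CPM in control frozen libraries, where 1 of 8 fell (Stab2). In FFPE 18 h tissue 1 of 8 had a log2 fold change above 0. In FFPE 3 weeks libraries they summed to 494 to 575 CPM in furan and 545 to 618 CPM in control, which overlap, and 0 of 8 were called. No endothelial marker was at 0 in every library of a preservation, and their part in the falls of Eng and Ltbp4 was not tested.

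Rises made up 1.57%, 7.82% and 1.07% of all genes in fresh frozen, FFPE 18 h and FFPE 3 weeks tissue. Among 15 tested transcriptional targets of TGF-beta other than the members, 1 rose in fresh frozen, 2 in FFPE 18 h and 1 in FFPE 3 weeks tissue. These were Skil in each preservation and Tgif1 in FFPE 18 h tissue, both counted among the SMAD regulators above as well. Junb, an AP-1 subunit, fell in FFPE 18 h tissue (log2 fold change -0.86 ± 0.21, adjusted p = 0.0088) and had -0.83 ± 0.45 in fresh frozen (adjusted p = 0.356) and 0.10 ± 0.53 in FFPE 3 weeks tissue (adjusted p = 0.981). Bhlhe40, a clock-linked repressor, had a log2 fold change of -0.37 ± 0.12 in fresh frozen tissue (adjusted p = 0.136). The list's median was -0.0020, 0.02 and -0.13 in fresh frozen, FFPE 18 h and FFPE 3 weeks tissue, beside the medians of all genes given above.

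The branch of the SMAD pathway that answers to bone morphogenetic proteins (BMP) was read from 9 tested targets. Smad9 fell in fresh frozen and FFPE 18 h tissue and 0 of 9 were called in FFPE 3 weeks tissue. There 3 of 5 alternative settings and 1 of 8 fits without 1 library called Smad9. It encodes a receptor-activated SMAD of this branch that BMP signals induce. Its values were 11.5, 14.7, 13.03 and 9.67 CPM in frozen furan livers, against 24.6, 32.6, 22.8 and 33.0 CPM in frozen control livers (log2 fold change -1.20 ± 0.17, adjusted p = 0.00516). FFPE 18 h tissue gave 14.3, 21.5, 20.2 and 15.3 CPM with furan, against 31.6, 38.9, 37.1 and 48.7 CPM in control (-1.12 ± 0.16, adjusted p = 0.000669). After 3 weeks the furan libraries had 26.8, 25.5, 23.6 and 26.4 CPM and the control libraries 35.5, 50.7, 32.5 and 56.7 CPM (-0.76 ± 0.22, adjusted p = 0.059; 0.0353 without the filter on low counts, 0.033 with DESeq2 and 0.00882 in the fit over 24 libraries). The fit over 24 libraries took its spread over all preservations and called more FFPE 3 weeks genes than the separate fit. The 4 furan livers were below the 4 control livers in each preservation. Id1 and Id2, inhibitors of differentiation and classical BMP targets, had log2 fold changes of 0.63 ± 0.31 and 0.63 ± 0.19 in fresh frozen tissue, opposite in sign to Smad9, and neither passed (adjusted p = 0.304 and 0.107). Hamp, the iron hormone hepcidin, had -0.39 ± 0.30 (adjusted p = 0.526).

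Actin-linked targets of the factor SRF, which shares many targets with YAP, were called in 0 of 14 cases in fresh frozen tissue. The counts were 2 of 14 in FFPE 18 h and 1 of 12 in FFPE 3 weeks tissue, each a rise. Rises over all genes were 1.57%, 7.82% and 1.07% in the same order. Actb, cytoplasmic beta-actin, rose in FFPE 3 weeks tissue (0.43 ± 0.09, adjusted p = 0.00522) and had 0.15 ± 0.11 in fresh frozen tissue (adjusted p = 0.517). In FFPE 18 h tissue it had 0.21 ± 0.07 (adjusted p = 0.0415), a call lost in 7 of 8 fits without 1 library and in the fit over 24 libraries (adjusted p = 0.380). The tropomyosin gene Tpm1 rose in FFPE 18 h tissue (0.58 ± 0.11, adjusted p = 0.00186) and had 0.44 ± 0.11 in fresh frozen tissue (adjusted p = 0.0709). In fresh frozen tissue the early response factor Egr1 had 1.02 ± 0.51, vinculin (Vcl) -0.23 ± 0.10 and calponin 2 (Cnn2) -0.37 ± 0.17, and none of these passed.

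**Figure D3:**
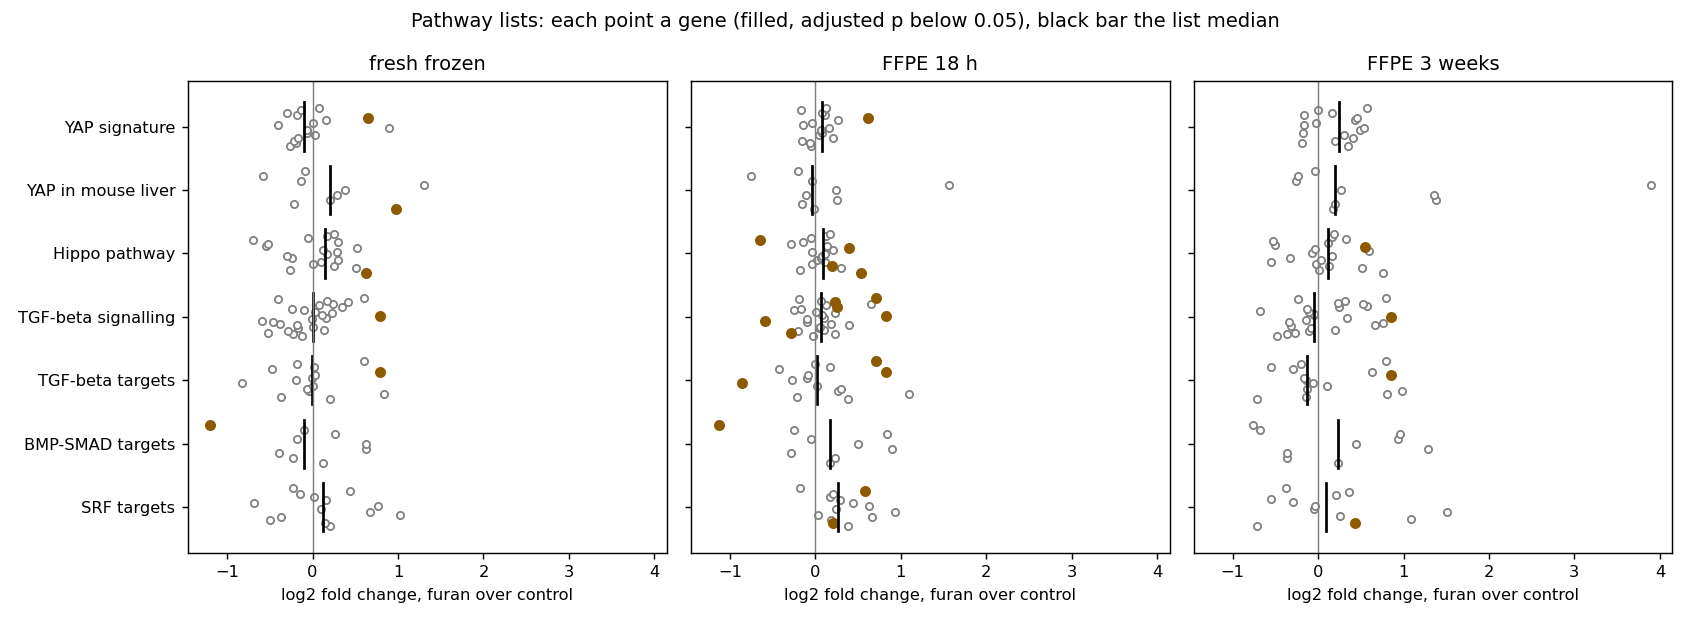
Log2 fold change of furan over control (horizontal axes) for each tested gene of 7 pathway lists in the 3 preservations; filled points have an adjusted p below 0.05 and the black bar is the list median. Most points lie near 0 and open; the open point at the right edge in FFPE 3 weeks tissue is Myc, at 3.89 (adjusted p = 0.0559).

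The calls of these pathway genes rested on single livers to different degrees. In fresh frozen tissue Smad9 was called in 8 of 8 fits that left out 1 library. Skil was called in 3 (without control animal 2, 3 or 4), Nt5e in 2 (without control animal 2 or 3) and Amot in 1 (without control animal 3). In the same 8 fits for FFPE 18 h tissue, Smad9, Skil, Nt5e, Amot and Tead1 were called in 8 and Actb in 1 (without furan animal 41). After 3 weeks Skil and Actb were called in 8, Tead1 in 3, Amot in 2, and Smad9 and Nt5e in 1 each.

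Leaving out control animal 3 moved the pathway calls in both directions. Leaving it out raised the share of genes called in fresh frozen tissue to 8.03%, and without it the log2 fold changes there were 0.55 for Amot, 0.62 for Nt5e and -1.13 for Smad9, each called, and 0.40 for Tead1, not called. Gadd45a, Myc and Tpm1 then also passed as rises and Tgfbr3 and Eng as falls. In FFPE 18 h tissue leaving it out lowered the share of genes called to 11%, and the calls of Lats1, Tgfbr1, Smurf2 and Actb were lost. Every fit without 1 library called fewer genes there, 1582 to 2061 against 2208, and 1582 was without this animal. Fewer animals and this animal's own values cannot be told apart in these losses. In FFPE 3 weeks tissue the share was 1.91%, the call of Tead1 was lost, and Amot and Egr1 were called as rises.

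Fixed tissue was then set against frozen tissue of the same livers. Against fresh frozen tissue, as the mean over both treatments and 8 libraries a side, 2 of 7 members were called in FFPE 18 h tissue, where 35.1% of 14901 genes were called, and 5 of 7 in FFPE 3 weeks tissue, where 55% were; each of these calls was a rise, and rises made up 16.3% and 25.5% of all genes. The median log2 change of the members was 0.37 for FFPE 18 h and 0.71 for FFPE 3 weeks over fresh frozen tissue, beside 0.02 and -0.04 for all genes. Without TMM the median of all genes shifted to 0.35 and 0.40, and 5 members were called in FFPE 18 h and 5 in FFPE 3 weeks tissue.

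Tgfb1 rose by 0.95 ± 0.21 in FFPE 18 h (adjusted p = 0.000653) and 0.96 ± 0.22 in FFPE 3 weeks tissue (adjusted p = 0.000406), that is 1.93-fold and 1.94-fold. Its 8 FFPE 18 h libraries, at 5.40 to 10.01 CPM, were above the 8 frozen ones at 3.02 to 5.17 CPM. Smad7 rose by 0.58 ± 0.15 (adjusted p = 0.00298) and 1.05 ± 0.16 (adjusted p = 8.89e-07). It ran from 20.5 to 27.8 CPM in FFPE 18 h, 20.4 to 52.3 CPM in FFPE 3 weeks and 12.6 to 18.6 CPM in fresh frozen libraries. Fixed and frozen libraries of Smad7 thus did not overlap. The share of all genes whose fixed and frozen libraries lie apart was not computed. Whether such separation is particular to Tgfb1 and Smad7 is therefore not known. Ctgf rose in FFPE 3 weeks tissue (1.41 ± 0.35, adjusted p = 0.00112) and had 0.67 ± 0.35 in FFPE 18 h tissue (adjusted p = 0.135). Cyr61 rose in FFPE 3 weeks tissue (0.71 ± 0.19, adjusted p = 0.00161) and had 0.37 ± 0.18 in FFPE 18 h tissue (adjusted p = 0.114). Fixed and frozen libraries overlapped for both of these CCN genes. Amotl2 rose by 0.26 ± 0.10 in FFPE 3 weeks tissue (adjusted p = 0.036), a call lost in 5 of 8 fits without 1 animal and without the filter on low counts (adjusted p = 0.0602), and had 0.02 ± 0.10 in FFPE 18 h tissue. Thbs1 and Ankrd1 were not called, at 0.09 ± 0.36 and -0.08 ± 0.83 in FFPE 3 weeks tissue.

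**Figure D4:**
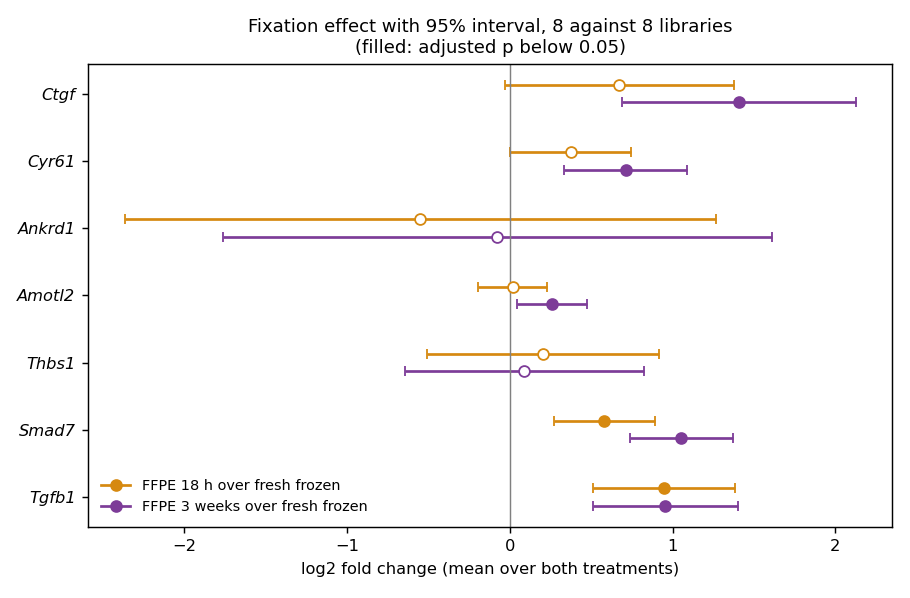
Log2 fold change of FFPE 18 h (orange) and FFPE 3 weeks (purple) over fresh frozen tissue for the 7 genes, with 95% intervals; filled points have an adjusted p below 0.05. Smad7 and Tgfb1 are filled in both, at 0.58 and 1.05 and at 0.95 and 0.96, and Thbs1 and Ankrd1 in neither.

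Markers of cell types moved with preservation too. Hepatocyte markers fell in 5 of 5 cases in both fixed preservations, and their summed level was 91547 to 109078 CPM in FFPE 18 h, 51476 to 66385 CPM in FFPE 3 weeks and 149602 to 180376 CPM in fresh frozen libraries. Of 5 tested myofibroblast markers, 4 rose in FFPE 18 h and 3 in FFPE 3 weeks tissue. Kupffer cell markers fell in 5 of 7 cases in both. Quiescent stellate markers fell in 5 of 8 and 4 of 8, and 1 of 8 rose in FFPE 3 weeks tissue. Sinusoidal endothelial markers fell in 4 of 8 and 5 of 8, and of 7 bile duct markers 2 rose and 1 fell in both. Of all 14901 genes, 2432 rose and 2792 fell in FFPE 18 h tissue, and 3807 rose and 4384 fell in FFPE 3 weeks tissue. The part of these cell types in the rises of the members was not tested.

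Per kilobase of exon, the scale on which genes can be compared, Amotl2 was highest of the members in each group. In frozen tissue it stood at 8.53 ± 0.972 CPM per kb in furan and 8.98 ± 1.60 CPM per kb in control livers (SD, n = 4 each). Cyr61 (4.09 ± 0.866 and 3.60 ± 0.253 CPM per kb) and Smad7 (3.69 ± 0.655 and 3.74 ± 0.441 CPM per kb) came next and did not differ beyond their spread. Tgfb1 followed at 1.77 ± 0.404 and 1.56 ± 0.176 CPM per kb. Ctgf, at 0.727 ± 0.300 and 0.926 ± 0.664 CPM per kb, and Thbs1, at 0.502 ± 0.0718 and 0.424 ± 0.0733 CPM per kb, overlapped. Ankrd1 was lowest at 0.181 ± 0.0646 and 0.181 ± 0.0305 CPM per kb. Across the 3 preservations the mean level of Ctgf, Cyr61 and Smad7 was higher at each longer formalin time in both treatments, though for Cyr61 in control livers FFPE 18 h (10.1 ± 1.49 CPM) and FFPE 3 weeks (10.2 ± 2.37 CPM) were within their spread.

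Levels were also followed by animal. Control animal 6 had the highest Ctgf of the 8 animals in each of the 3 preservations, and furan animal 43 the highest Cyr61 in each. For every other member the highest animal changed between preservations. Over the 8 animals, Ctgf in frozen and FFPE 18 h pieces correlated with Pearson's r of 0.848 (exact permutation p = 0.0065) and Spearman's rho of 0.762 (exact permutation p = 0.0368). It was the relation with the smallest p of 18 computed, and it did not pass adjustment (adjusted p = 0.117). Without animals 3 and 6, the farthest from the median, r was 0.796. Smad7 in the same pieces gave r of 0.740 and rho of 0.690 (exact permutation p = 0.0402 and 0.0694; adjusted p = 0.247 and 0.416), and r was 0.986 without control animal 4 and furan animal 42. Cyr61 gave r of 0.712 and rho of 0.690 (exact permutation p = 0.0412 and 0.0694; adjusted p = 0.247 and 0.416), and 0.204 without furan animals 43 and 44, on which it rested. Ctgf between FFPE 18 h and FFPE 3 weeks pieces gave r of -0.07 (exact permutation p = 0.871) and rho of -0.21 (exact permutation p = 0.619). Between frozen and FFPE 3 weeks pieces Ctgf gave r of 0.25 and rho of 0.17 (exact permutation p = 0.554 and 0.703). Without animals 3 and 6 that r was -0.74.

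**Figure D5:**
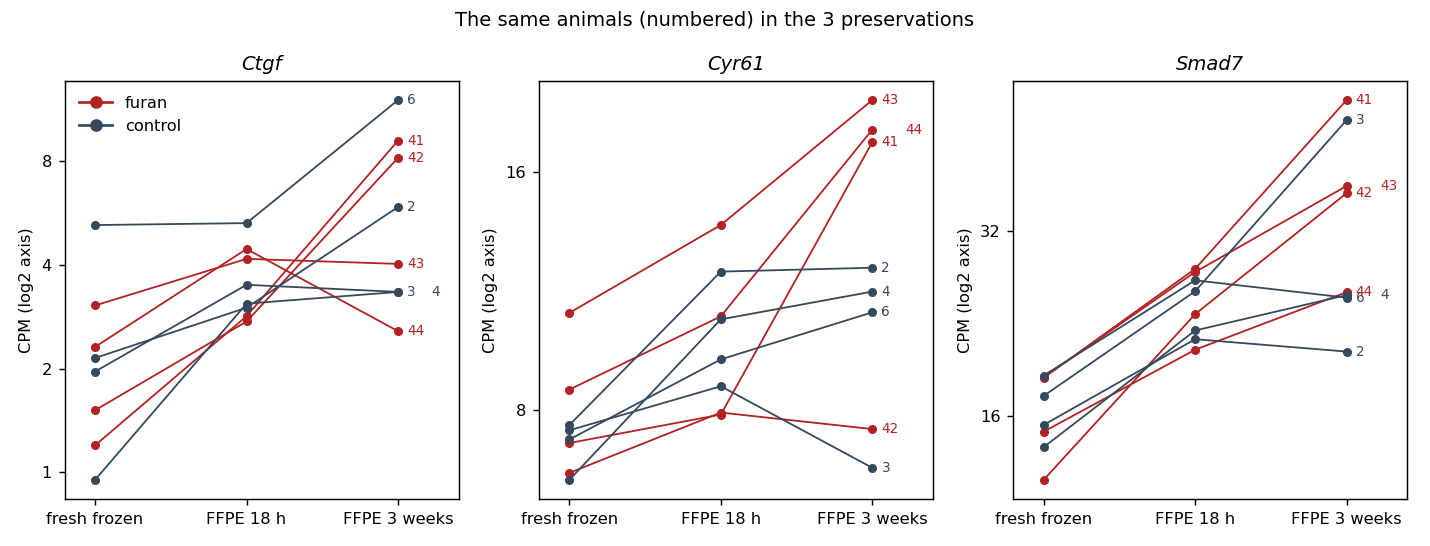
CPM (log2 vertical axes) of Ctgf, Cyr61 and Smad7 in the 3 pieces of each liver, furan animals in red and control animals in blue, lines joining pieces of the same animal. Control animal 6 is highest for Ctgf and furan animal 43 for Cyr61 in every preservation; Smad7 is higher in the FFPE 18 h than in the frozen piece in 8 of 8 animals.

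The correlations between members were low or negative. After the mean of each preservation was removed, the correlations of log2 CPM between pairs of the 6 members tested in each preservation, over 24 libraries of 8 animals, ran from -0.60 (Smad7 and Tgfb1) to 0.29 (Smad7 and Amotl2). The CCN relatives Ctgf and Cyr61 correlated at 0.03, and Ctgf had negative values with Tgfb1 (-0.45) and Amotl2 (-0.45). Libraries of an animal share its liver, and depth differed between libraries. The spread was not scaled by preservation, and Ctgf, Thbs1 and Tgfb1 held 5 to 135 counts in FFPE 3 weeks libraries. Counting noise can hide or mimic shared variation here, and its part was not tested. By the same measure over 12804 genes, those most like Ctgf were BC023829 (r = 0.789), Sh2d7 (0.772) and Mpzl2 (0.758). The genes most like Cyr61 were Clic1 (0.803), Impdh2 (0.761) and Topbp1 (0.760), and for Amotl2 they were Ppm1g (0.785), Ufc1 (0.778) and Gm13826 (0.776). Thbs1 was most like Rpl9 (0.876), Gak (0.842) and Cdc26 (0.838). For Smad7 the nearest were Pold4 (0.854), E030003E18Rik (0.821) and Rhob (0.809), and for Tgfb1 Cdan1 (0.776), Adamts9 (0.776) and Zbp1 (0.770). None of these was another member, which says little, since each r was picked from the top of 12804 genes. The values that chance gives for such maxima were not computed.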

How the data were processed

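The authors deposited a table of raw counts per gene symbol, 1 column for each of 24 libraries, and the values were whole numbers; 4185 of 24015 symbols had no count. Per the submitters' processing notes, the tools were CASAVA 1.8.2, STAR 2.3.0 and featureCounts 1.4.4 and the genome build mm9. Gene models, strand setting and treatment of multiply mapped reads are not given in the sources used here. Per the labels, libraries came from ribosome-depleted total RNA, and each liver gave 3 pieces, which pairs the libraries across preservations. Deviations from the group means of pieces of the same animal correlated at a median of 0.26 between fresh frozen and FFPE 18 h, 0.08 between fresh frozen and FFPE 3 weeks and 0.08 between the fixed pieces, and were above 0 in 8 of 8 animals each. Pieces of different animals gave medians of -0.08, -0.02 and -0.03 in the same order. The frozen piece of control animal 3 did not stand out so. It correlated at 0.017 with its own FFPE 3 weeks piece and 0.027 with that of control animal 4, and its FFPE 18 h values were 0.0426 and 0.0425.

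Counts were fitted in R 4.3.3 with edgeR 4.0.16 (TMM, filterByExpr, robust quasi-likelihood test, two-sided, Benjamini-Hochberg). Furan and control, 4 animals each, were fitted separately for every preservation. Preservations and the differences in furan effect were tested in 1 fit of all 24 libraries, without the animal as block. Fold changes come from these fits and can differ from ratios of the printed mean CPM. SE was derived from the estimate and its F statistic. CPM per kb used exon lengths of a GRCm38 annotation. Correlations used log2 CPM with a prior count of 2. Counting intervals cover counting error only.

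The members, pathway lists and marker lists were chosen with earlier results of these data known. One gene of the TGF-beta target list is not reported here and was left out of that list's counts and median. Named pathway genes are, per list, up to 4 with the smallest p in fresh frozen tissue and those called in at least 2 preservations; Vgll4, Tgfbr1, Smurf2 and Ltbp4 were added after their values were seen. Alternatives were DESeq2 1.42.0 and its size factors, no filter, 1 fit of all libraries, thinning to 5560002 counts, leaving out each library or animal, and the animal as replicate block. Scaling without TMM, and list counts without control animal 3, were added after seeing the data. The fits were tested on simulated data.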

Additional observations from a re-analysis of the deposited data

Results flagged for a closer look

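For each of the 7 genes in each of the 6 groups, the highest and lowest of 4 libraries were compared with the others by Dixon's ratio, 42 groups in all; chance flags about 1 in 20 groups. Amotl2 had 50.7 CPM in the frozen piece of control animal 3, against 35.7 to 37.7 CPM in the other frozen controls, and this is the library that also correlated least with its group. Tgfb1 had 5.17 CPM in the frozen piece of furan animal 42, against 3.34 to 3.52 CPM in the other frozen furan livers. Smad7 had 48.6 CPM in the FFPE 3 weeks piece of control animal 3, against 20.4 to 25.2 CPM in the other controls, while its FFPE 18 h piece, at 25.5 CPM, lay among them. Ankrd1 had 0.468 CPM, from 5 counts, in the FFPE 3 weeks piece of furan animal 43 and 0 in the other 3 furan libraries. The causes were not tested.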

How the results depend on the processing

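Furan called 0 members in every setting run in each preservation, and the differences in furan effect between preservations also called 0. The number of all genes called moved: in fresh frozen tissue it was 392, 1066 with DESeq2 and 99 to 1148 without 1 library. It was 2208 in FFPE 18 h tissue, 305 in the fit over 24 libraries and 1582 to 2061 without 1 library. In FFPE 3 weeks tissue it was 335, 1549 in the fit over 24 libraries and 218 to 280 without 1 library. The furan effect differed from fresh frozen in 4 genes for FFPE 3 weeks, 2 with the replicate block, 155 with DESeq2 and 0 to 14 without 1 animal, and in 0 genes for FFPE 18 h, 1 with DESeq2. With the replicate block, calls against fresh frozen were 5452 for FFPE 18 h and 8114 for FFPE 3 weeks, and the block changed no call of a member. Members called in FFPE 18 h were 2, 3 after thinning and 5 without TMM; in FFPE 3 weeks they were 5, 4 without the filter and 4 to 5 without 1 animal. Without TMM, 4909 genes rose and 992 fell in FFPE 18 h (2432 and 2792 with TMM), and 6457 rose and 2204 fell in FFPE 3 weeks (3807 and 4384).

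Signs turned for small effects that were not called. Without TMM, furan gave 0.016 for Ankrd1 and 0.012 for Smad7 in fresh frozen and 0.0052 for Ctgf in FFPE 3 weeks tissue, and FFPE 3 weeks over frozen gave 0.34 for Ankrd1 (0.00164 with size factors). FFPE 18 h furan effects were -0.0091 for Cyr61 and -6.1e-05 for Amotl2 without the filter, and -0.0063 for Cyr61 in the fit over 24 libraries. With the replicate block Thbs1 was -0.038 in FFPE 3 weeks over frozen, and the FFPE 18 h difference for Ankrd1 was -1.10; after thinning that for Cyr61 was 0.080. Leaving out 1 library gave, in fresh frozen tissue, -0.62 to 0.25 for Ctgf, -0.23 to 0.18 for Ankrd1, -0.15 to 0.061 for Amotl2 and -0.093 to 0.083 for Smad7. In FFPE 18 h it gave -0.19 to 0.15 for Ctgf, -0.20 to 0.094 for Cyr61, -0.086 to 0.066 for Amotl2 and -0.0051 to 0.14 for Smad7, and in FFPE 3 weeks -0.31 to 0.53 for Ctgf and -0.51 to 0.018 for Tgfb1. Leaving out 1 animal gave -0.036 to 0.091 for Amotl2 in FFPE 18 h over frozen, and -2.48 to 0.24 for Ankrd1 and -0.17 to 0.26 for Thbs1 in FFPE 3 weeks over frozen. For the FFPE 18 h difference it gave -0.076 to 0.17 for Amotl2, -0.91 to 0.91 for Ankrd1 and -0.10 to 0.47 for Ctgf, and for FFPE 3 weeks -0.18 to 0.72 for Ctgf. The cause was not tested.

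Counts were low for Ankrd1 throughout, and libraries of Ctgf, Thbs1 and Tgfb1 held 5 to 135 counts in FFPE 3 weeks tissue. Ctgf held 26 to 112 counts there and 30 to 177 in frozen libraries. The part of depth in their spread was not tested.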
